A study of Mus musculus with 6 samples.

Results

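The resistin-like genes Retnla, Retnlb and Retnlg are 3 of the 52636 genes in the deposited table of single-cell counts, and were found by matching its Ensembl identifiers to the GENCODE annotation of GRCm38. The cells were alveolar type II (ATII) cells, which make lung surfactant and renew the alveolar epithelium. The study asked how the response of ATII cells to interleukin 4 (IL-4) changes with the age of the mouse, and all groups carried the IL4Ra WT genotype. Its 3 expression libraries, 1 per group, held cells sorted fresh from young and old mice (day 0), cells of both ages after culture (day 13), and cells of young mice alone after culture (day 13). In the culture, which used neither serum nor feeder cells, 10 ng/ml of an interleukin or its carrier PBS was added from day 3. Of the labels, the title has IL-4 and the design text has a different interleukin. Mice and treatments were pooled within a library under tags, and each library is labelled a mixed sample.

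The barcodes carry 3 library tokens that match no label, so letters A to C name the libraries by first appearance among the barcodes. Which day, age or treatment each holds is not known, no value of 1 library was tested against another, and values by library are set side by side only. Library A held 16367 kept cells and 63658436 unique molecular identifiers (UMIs, counts of single RNA molecules), B 5593 cells and 48676834 UMIs, and C 14580 cells and 53329664 UMIs. The median depth was 3749, 8349 and 3341 UMIs per cell. All 16 ATII markers reached 20 counts per 1000000 UMIs (CPM) in A and B and 15 did in C, and Sftpc, the surfactant protein C gene, held 255076, 128764 and 116228 CPM. Intervals below are 95% exact intervals of counting error, they do not cover the spread between mice or libraries, and no p-value is given. Those of CPM and folds treat pooled UMIs as independent and leave out the spread between cells too. They are thus too narrow for a gene as uneven between cells as Retnla. Barcodes shared between libraries numbered 20 for A and B, 67 for A and C and 22 for B and C, and leaving these cells out moved Retnla to 27.5, 11752 and 22526 CPM.

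Resistin-like molecules are small secreted proteins with a conserved cysteine-rich end. Retnla encodes RELM alpha, which macrophages and airway and alveolar epithelium make when IL-4 or IL-13 act through the IL-4 receptor and the transcription factor STAT6. Retnlb encodes RELM beta of mucus-producing goblet cells, Retnlg encodes RELM gamma, known from bone marrow and neutrophils, and Retn encodes resistin itself, which mouse fat cells secrete.

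The members lie side by side on chromosome 16, all on the plus strand, in a span of 57641 bases. Retnlb (ENSMUSG00000022650) is at chr16:48816856-48818892, Retnla (ENSMUSG00000061100) at chr16:48842551-48844461 and Retnlg (ENSMUSG00000022651) at chr16:48872621-48874496 of GRCm38. Each has 1 annotated transcript with 4 exons. Retn (ENSMUSG00000012705) is on chromosome 8. RefSeq promoter windows (GRCm38.p6, 250 bases before to 50 after the start) were at hand for 2 of the 3 members, Retnla and Retnlg. The stretches before both the GENCODE and the RefSeq starts are shown 5′ to 3′ on the plus strand, because the 2 genes are compared below across the same cells. They are chr16:48842359-48842550 for Retnla and chr16:48872358-48872607 for Retnlg. Capitals mark matches to a STAT6-type motif, TTC and GAA with 4 bases between, and to a C/EBP-type motif, TTGCNNAA, on either strand.

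Retnla: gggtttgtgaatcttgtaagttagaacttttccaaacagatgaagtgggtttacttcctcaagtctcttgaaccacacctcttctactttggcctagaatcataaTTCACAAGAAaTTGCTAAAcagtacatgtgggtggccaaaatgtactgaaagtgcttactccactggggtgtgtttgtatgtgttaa

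Retnlg: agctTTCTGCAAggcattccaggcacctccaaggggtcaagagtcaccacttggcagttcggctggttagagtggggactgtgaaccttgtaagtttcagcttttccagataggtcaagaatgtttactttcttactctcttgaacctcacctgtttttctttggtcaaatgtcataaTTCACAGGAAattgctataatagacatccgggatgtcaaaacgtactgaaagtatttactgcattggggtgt

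Both stretches hold the STAT6-type letters, TTCACAAGAA in Retnla at chr16:48842464-48842473 and TTCACAGGAA in Retnlg at chr16:48872536-48872545. They begin 145 and 72 bases before the RefSeq starts, which are at 48842609 and 48872608. The GENCODE starts are at 48842551 and 48872621, and counted from these the distances of the genes are closer to each other. In Retnla the C/EBP-type letters TTGCTAAA follow after 1 base, and in Retnlg the C/EBP-type match is on the minus strand, at chr16:48872362-48872369. Of 32851 promoter windows of 300 bases, 6.95% held the STAT6-type motif, 10.8% the C/EBP-type motif and 0.840% both. Other motifs were searched in the whole windows. TATAAA was found in Retnla alone, beginning 30 bases before the RefSeq start and outside the stretch shown (13.6% of windows hold it), while TTCNNNGAA (8.30% of windows) and the hypoxia motif ACGTG (19.6%) were in neither. A match to letters is a description and does not show binding. The windows of Retnla and Retnlg were identical at 178 of 225 aligned bases (79.1%).

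Retnla was among the most abundant transcripts in 2 of the 3 libraries. Retnlg was low and Retnlb lower still in each, with 0 UMIs of Retnlb in A. Retnla held 1745 UMIs in library A, 571937 in B and 1201197 in C. This corresponds to 27.4 CPM in A (interval 26.1 to 28.7), 11750 CPM in B (interval 11719 to 11780) and 22524 CPM in C (interval 22484 to 22564). By UMIs it ranked 4071 of 27018 detected genes in A, 3 of 23454 in B and 2 of 23955 in C. Retnlg held 58, 631 and 763 UMIs, or 0.911 CPM (interval 0.692 to 1.18), 13.0 CPM (interval 11.97 to 14.02) and 14.3 CPM (interval 13.3 to 15.4). Retnlb had 0 UMIs in library A, which allows up to 0.0471 CPM at 3 counts of the total, 30 UMIs in B (0.616 CPM, interval 0.416 to 0.880) and 45 in C (0.844 CPM, interval 0.615 to 1.13). Retn held 49, 9 and 10 UMIs, that is 0.770, 0.185 and 0.188 CPM. The order Retnla, Retnlg, Retnlb held in each library, and Retn stood within the counting intervals of Retnlg in A. The plot of levels by library shows the 3 members and Retn on 1 scale.

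**Figure D1:**
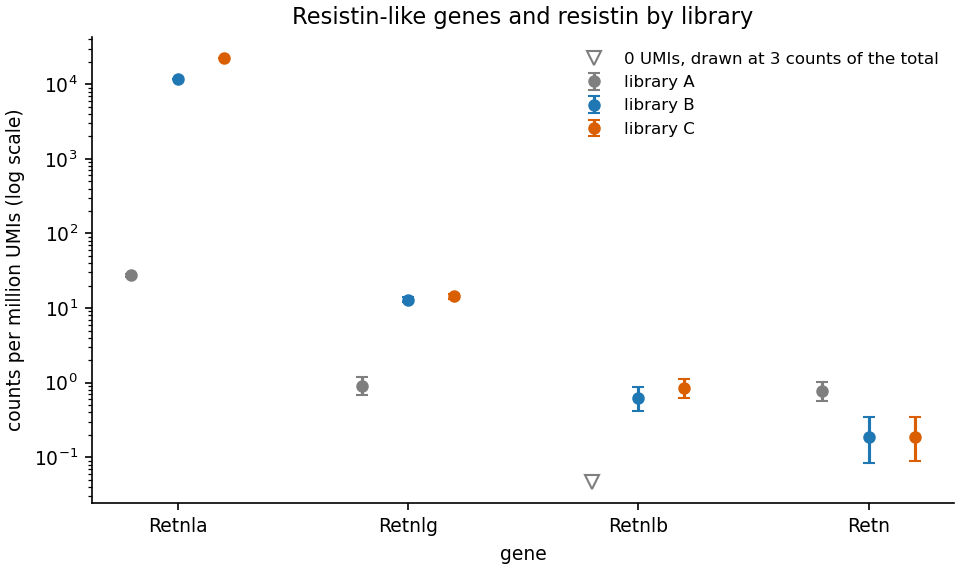
CPM (log scale) of Retnla, Retnlg, Retnlb and Retn in libraries A, B and C, with bars for 95% exact Poisson intervals. Retnla stands at 27.4, 11750 and 22524 CPM, Retnlg at 0.911, 13.0 and 14.3 CPM, and the open triangle puts the 0 UMIs of Retnlb in library A at 3 counts of the total.

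The genes around the members were low throughout. Of the annotated genes within 250 kb, Dzip3, which encodes an RNA-binding ubiquitin ligase, stood at 9.72 (A), 17.3 (B) and 18.9 CPM (C). Cip2a, an inhibitor of protein phosphatase 2A, held 0.424, 6.29 and 7.39 CPM, and Morc1, a gene of the germ line, 1.38, 1.62 and 1.76 CPM. Trat1 and Myh15 each stayed under 0.3 CPM in the 3 libraries, and the small RNA gene Gm22576 had 0 UMIs. Retnla thus stood alone at its level in this region in libraries B and C.

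Similarity between members bears on how reads are assigned, which the submitters' notes leave unstated beyond the tool. The transcripts of Retnla (599 bases) and Retnlg (593 bases) were identical at 500 of 585 aligned bases (85.5%), with a longest shared run of 49 bases. Over the last 300 bases, where 3 prime libraries place most reads, the identity was 81.9% and the longest shared run 21 bases. Retnlb (696 bases) shared 78.8% with Retnla, with a longest run of 15 bases over the whole transcript.

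A Retnla UMI was found in 688 of 16367 cells of library A (4.20%, interval 3.90 to 4.52%), in 5245 of 5593 cells of B (93.8%, interval 93.1 to 94.4%) and in 11398 of 14580 cells of C (78.2%, interval 77.5 to 78.8%). Cells were then thinned to 2000 UMIs each, which left out 288, 29 and 1289 shallower cells, and the shares became 2.41%, 83.7% and 72.5%. The median cell held 0 Retnla UMIs in A, 64 in B and 41 in C, the 95th percentile was 0, 351 and 289, and the highest cells held 130, 997 and 851. In A, 483 of the 688 cells with Retnla had a single UMI. In B and C the 10% of cells with most Retnla held 37.9% of all Retnla UMIs in each. At 2000 UMIs per cell the variance of Retnla was 8.16, 27.3 and 53.3 times its mean, ranking 9 of 9225, 6 of 8726 and 1 of 8680 genes. The coefficient of variation was 13.0, 1.12 and 1.10. By variance over mean Retnla thus ranked near the top in each library, and in A the spread came with few cells that held it. That ratio can grow with the level of a gene, and Retnla was not ranked against genes of like level.

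Cells of libraries B and C fell into a low and a high range of Retnla. With a limit of 20 Retnla UMIs per 10000, chosen after the distribution was seen, 3817 cells of B (68.2%, interval 67.0 to 69.5%) and 8316 cells of C (57.0%, interval 56.2 to 57.8%) were in the high range. They held 99.1% and 99.6% of the Retnla UMIs. Their median was 126 Retnla UMIs per 10000 in B and 354 in C, against 2.71 and 0 in the other cells. Within 10 to 40 per 10000, near the limit, lay 600 cells of B (10.7%) and 437 of C (3.00%). The high cells were deeper, with medians of 9196 against 6450 UMIs in B and 3587 against 3092 in C. Treatments are mixed within a library and cells were not assigned to one, so whether the ranges follow treatment was not tested. In library A 31 cells (0.189%) were in the high range, and they held 39.3% of its Retnla UMIs.

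**Figure D2:**
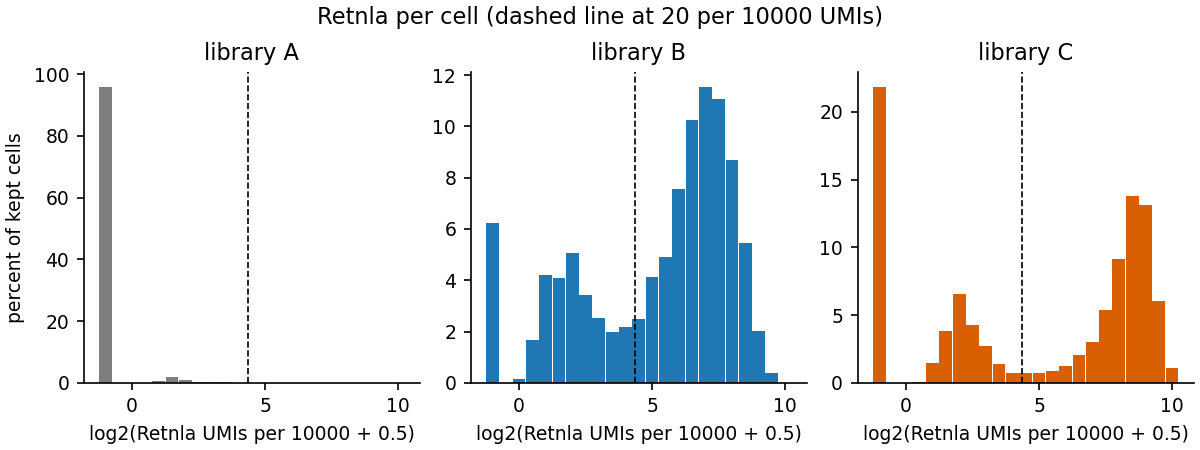
Share of kept cells (percent) by log2 of Retnla UMIs per 10000 plus 0.5, for libraries A, B and C on separate vertical scales, with a dashed line at 20 per 10000. Cells of B and C form a low and a high range, with 68.2% and 57.0% above the line, and 0.189% of A lie there.

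Retnla CPM also rose with the depth of the cell. From the shallowest to the deepest 20% of cells it went from 12.4 to 48.7 CPM in A and from 16861 to 24939 CPM in C, where the next deepest 20% was highest at 25608 CPM. In B it went from 6438 CPM to 12957 CPM, again with the highest value, 13274 CPM, in the next deepest 20%.

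Cells with 10 or more Retnla UMIs carried ATII transcripts and rarely the leukocyte genes Ptprc, S100a8 or S100a9, whose lists were low in all cells too, as given below. Of 3895 such cells in B 0 held Ptprc, the pan-leukocyte surface gene, and 1 held the neutrophil genes S100a8 or S100a9, and of 8181 in C 1 held Ptprc. In library A 26 cells held 10 or more Retnla UMIs, with a median of 1186.5 Sftpc UMIs, 0 cells with Ptprc and 0 with Marco or C1qa of macrophages. Marco and C1qa had 0 UMIs in all kept cells of A, so their 0 here is not particular to these cells. The pan-leukocyte list held 72 UMIs in all of A, of which Fcer1g gave 67, so the 0 for Ptprc has little weight. Fcer1g, also on the pan-leukocyte list, had 2 UMIs in 2 of them. It stood at 14.05 CPM (interval 1.70 to 50.7) against 1.02 CPM in the remaining cells of A. Alveolar macrophage and lymphocyte markers each summed to 56.2 CPM on 8 UMIs, against 42.4 and 28.4 CPM in all cells of A. Neutrophil markers were at 0 against 0.770 CPM, and those of monocytes and related cells at 1770 against 1838 CPM. The neutrophil list held 49 UMIs in all of A, so its 0 in 26 cells has little weight. The 26 cells also differed in other genes from the remaining cells of A, a comparison chosen after the values were seen. Slc26a4, an anion exchanger known to rise with IL-4 and IL-13, stood at 176 CPM (interval 114 to 259, 25 UMIs in 8 cells) against 11.8 CPM. The chitinase-like gene Chil1 stood at 4888 CPM (interval 4532 to 5265) against 2103 CPM. Chia1 stood at 309 CPM (interval 225 to 415) against 371 CPM. Pigr stood at 126 CPM (interval 74.9 to 200) against 11.7 CPM. Chil4 and Rgs4, which rose with Retnla in B and C as given below, had 0 UMIs in the 26 cells. In the remaining cells of A they stood at 0.110 and 0.205 CPM. Top2a, at 119 CPM, came from 1 cell with 17 UMIs.

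Marker lists for other sources of these genes were summed over all kept cells. The 6 pan-leukocyte markers summed to 1.13 CPM in library A, 1.13 in B and 0.994 in C, and the 10 neutrophil markers to 0.770, 1.58 and 0.506 CPM. The 13 markers of monocytes, interstitial macrophages or dendritic cells summed to 1838, 239 and 205 CPM, led by the lysozyme gene Lyz1, and C1qa, C1qb and C1qc were at 0 in every library. Of the alveolar macrophage list Marco and Siglecf were at 0 in every library. The 12 goblet cell markers summed to 6.30, 49.0 and 38.5 CPM. In cells with 300 or more Retnla UMIs per 10000 they summed to 129 CPM in B and 70.5 CPM in C, against 14.96 and 5.68 CPM in cells under 2, led by Bpifb1 in the high cells, while Gp2 and Dmbt1 were at 0. The list of monocytes and related cells went the other way, at 114 against 1000 CPM in B and 57.0 against 430 CPM in C. Of these sums Lyz1 gave 67.1 against 973 CPM in B and 39.6 against 413 CPM in C. The airway secretory list (10 markers) stood at 6097 CPM in A, 182 in B and 166 in C, and in cells with 300 or more Retnla UMIs per 10000 against under 2 at 178 against 108 CPM in B and 218 against 112 CPM in C. The 12 lymphocyte markers summed to 28.4, 132 and 145 CPM, of which Cd79b gave 25.9, 131 and 144 CPM, while Nkg7, Gzma and Ighm were at 0 in every library. That list, too, was higher with Retnla, at 234 against 56.5 CPM in B and 230 against 63.0 CPM in C. What part these markers have in the Retnla range was not tested. No cell type known to lack Retnla was found, so free RNA in droplets could not be gauged, and levels of the low range are not read as expression.

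Retnlg was found mainly in the cells that held much Retnla. It stood at 15.9 CPM in Retnla-high cells of B (576 UMIs, interval 14.6 to 17.2) against 4.43 CPM in the other cells (55 UMIs, interval 3.34 to 5.77), a ratio of 3.58 (interval 2.71 to 4.81). In C the values were 23.0 CPM (735 UMIs, interval 21.3 to 24.7) against 1.31 CPM (28 UMIs, interval 0.872 to 1.90), a ratio of 17.5 (interval 12.01 to 26.5). At 2000 UMIs per cell 2.63% of Retnla-high cells of B had a Retnlg UMI against 0.739% of the others, and in C 3.06% against 0.163%. Without thinning, Retnla-high cells were 90.7% of the 364 cells with Retnlg in B and 66.7% of those without, and 94.9% of the 471 in C against 55.8%. Library A held too few Retnla-high cells, 31 of 16367, for the same comparison.

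For Retnla and Retnlg in ranges of Retnla, CPM was taken over UMIs of genes other than the members. Sums of marker lists in these ranges are over all UMIs, which lowers them somewhat where Retnla is high. In library A Retnlg stood at 0.734 CPM (45 UMIs, interval 0.535 to 0.982) in cells with under 2 Retnla UMIs per 10000, 5.31 CPM (11 UMIs, interval 2.65 to 9.51) at 2 to 10 and 7.82 CPM (2 UMIs, interval 0.947 to 28.2) at 10 to 50. Without 1 cell with 5 Retnlg UMIs the value at 2 to 10 was 2.90 CPM (interval 1.07 to 6.32). In library B it stood at 1.42 CPM in cells with under 2 Retnla UMIs per 10000, 5.38 at 2 to 10 and 12.4 at 10 to 50. It then stood at 17.0 CPM (interval 15.03 to 19.1), 16.6 CPM (interval 14.2 to 19.3) and 16.4 CPM (interval 12.7 to 20.8) in the 3 higher ranges, while Retnla went from 9772 to 41753 CPM. A single cell with 58 Retnlg UMIs lay in the first of these, which stood at 13.4 CPM (interval 11.7 to 15.3) without it. The intervals of the 3 ranges overlapped with and without that cell. In C the series was 0.811 and 1.79 CPM below 10, then 17.7, 16.8 and 17.6 CPM, and 27.6 CPM (interval 25.3 to 30.1) at 300 or more.

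**Figure D3:**
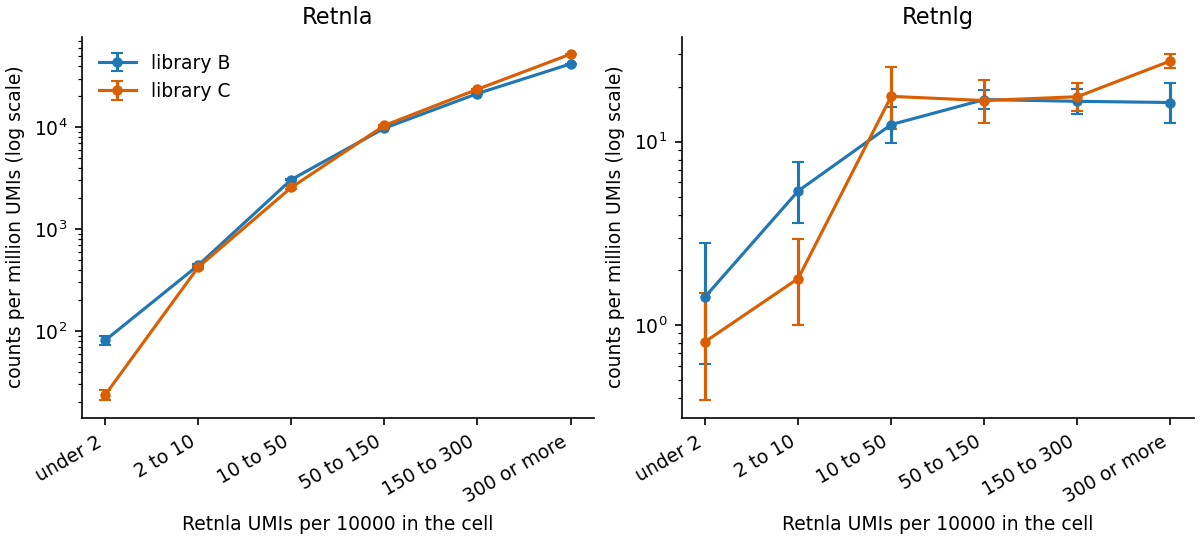
Retnla (left) and Retnlg (right) in CPM (log scales) in 6 ranges of Retnla UMIs per 10000, for libraries B and C, with 95% exact Poisson intervals. Totals leave out the members. Retnlg in B stands at 17.0 (13.4 without 1 cell), 16.6 and 16.4 CPM in the 3 highest ranges, with overlapping intervals, while Retnla goes from 9772 to 41753 CPM.

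Single cells with much Retnlg were few. The highest held 5 UMIs in A, 58 in B and 20 in C. The cell with 58 Retnlg UMIs had 16313 UMIs in all, 96 of Retnla, 16 of Sftpc, 6 of Krt19 and 11 of Bpifb1. Cells with 2 or more Retnlg UMIs numbered 93 in B and 114 in C, with a median of 1249 and 443.5 Sftpc UMIs. Among them 0 held Ptprc and 0 held S100a8 or S100a9. These zeros have little weight, because such genes were rare in all cells. The pan-leukocyte list held 55 UMIs in all of B and 53 in all of C, and the neutrophil list 77 and 27. Goblet markers summed to 167 CPM in these cells of B and 122 CPM in those of C, led by Tff2 and Bpifb1, and Muc5ac and Clca1 were at 0. Airway secretory markers summed to 638 CPM in B, of which Scgb1a1 gave 463 CPM, and to 258 CPM in C.

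Retnlb was sparser, with 25 cells in B and 37 in C that held a UMI, of which 22 and 36 were Retnla-high. It stood at 0.744 CPM (27 UMIs, interval 0.491 to 1.08) in Retnla-high cells of B and 0.242 CPM (3 UMIs, interval 0.0499 to 0.707) in the others, a ratio of 3.08 with an interval of 0.947 to 15.9. In C it stood at 1.38 CPM (44 UMIs) against 1 UMI in the others, a ratio of 29.4 with an interval of 5.0 to 1185. Ptprc was found in 0 of these cells, which has little weight for the same reason as with Retnlg. Goblet markers summed to 216 CPM in the 25 cells, of which Tff2 gave 43 of 62 UMIs, and to 45.5 CPM in the 37 cells.

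Dividing cells had about the same Retnla level as the others in libraries B and C. Cells with a UMI of the mitosis genes Mki67 or Top2a numbered 171 in A, 1512 in B and 2558 in C. Retnla stood at 11496 CPM in such cells of B against 11874 CPM in the others, which is -0.05 on the log2 scale (interval -0.05 to -0.04). In C the levels were 21855 and 22745 CPM, or -0.06 on that scale (interval -0.06 to -0.05). In A it stood at 50.4 CPM on 37 UMIs against 27.1 CPM, a log2 fold of 0.87 (interval 0.38 to 1.36), but 2 of the 171 cells gave 11 and 9 of the 37 UMIs. Without them the levels were 23.6 and 27.1 CPM, a log2 fold of -0.19 (interval -0.99 to 0.48). With 2 or more such UMIs asked for, the log2 fold in A was 2.38 on 17 UMIs, of which 1 cell gave 11, and 1.01 (interval -0.41 to 2.17) without that cell. Among cells without Krt19 it was 1.05, and -0.37 (interval -1.39 to 0.46) without the 2 cells. A gene was called when 1 class had at least 20 CPM and the classes differed by 1 or more on the log2 scale. By that rule 2.38% of genes in A, 4.26% in B and 6.82% in C were higher in the dividing cells and 0.286%, 0.244% and 0.775% lower, and Retnla was in neither set in any library with 1 UMI asked for and all cells taken. Retnla-high were 70.6% of dividing cells of B and 63.5% of C, against 67.4% and 55.7% of the others, which were shallower. At 2000 UMIs per cell 66.8% of dividing cells of B and 62.7% of C were Retnla-high, against 68.6% and 58.0% of the others. The distribution itself differed in C, where the 95th percentile was 579 Retnla UMIs per 10000 in dividing cells and 678 in the others. Retnlg had log2 folds of 0.19 in B (interval -0.03 to 0.44) and 0.43 in C (interval 0.23 to 0.68), below the 20 CPM that a call needs. Without the cell with 58 Retnlg UMIs the value in B was 0.40 (interval 0.18 to 0.68).

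Retnla was lower in cells that held Krt19, a keratin gene of cells between the ATII and ATI states. In library C the 3709 cells with 2 or more Krt19 UMIs stood at 12628 CPM and the 6915 cells with 0 at 28313 CPM, a log2 fold of -1.16 (interval -1.17 to -1.16). In library B the 2785 and 1353 cells stood at 9127 and 15604 CPM, a log2 fold of -0.77 (interval -0.78 to -0.76), short of a call. In library A the values were 25.7 CPM (59 UMIs) and 26.3 CPM, a log2 fold of -0.03 (interval -0.43 to 0.34). Among all genes 0.213% were called lower in C, 0.0% in B and 0.0374% in A, and 2.36%, 1.02% and 0.599% higher. Retnla was thus 1 of the 10 genes called lower in C. With classes set after thinning to 2000 UMIs the log2 fold was -1.82 in B and -1.82 in C, and with 3 or more Krt19 UMIs it was -1.05 in B, so that the call in B depends on the setting.

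The difference was graded. From 0 to 1, 2, 3 to 4, 5 to 9 and 10 or more Krt19 UMIs, Retnla in B went from 15604 to 13606, 11933, 9556, 5484 and 1188 CPM. In C it went from 28313 to 22652, 17866, 10677, 4002 and 849 CPM. The highest step held 175 cells of B and 99 of C. Over the same steps the share of Retnla-high cells went from 79.4% to 10.9% in B and from 69.8% to 5.05% in C. With cells thinned to 2000 UMIs the shares were 31.8% with 2 or more Krt19 UMIs and 77.6% with 0 in B, and 26.1% and 68.2% in C. Among Retnla-high cells alone the log2 fold between cells with 2 or more and 0 Krt19 UMIs was -0.46 in B and -0.23 in C, so the call in C was lost. Their levels were 13428 against 18535 CPM in B and 33139 against 38846 CPM in C.

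**Figure D4:**
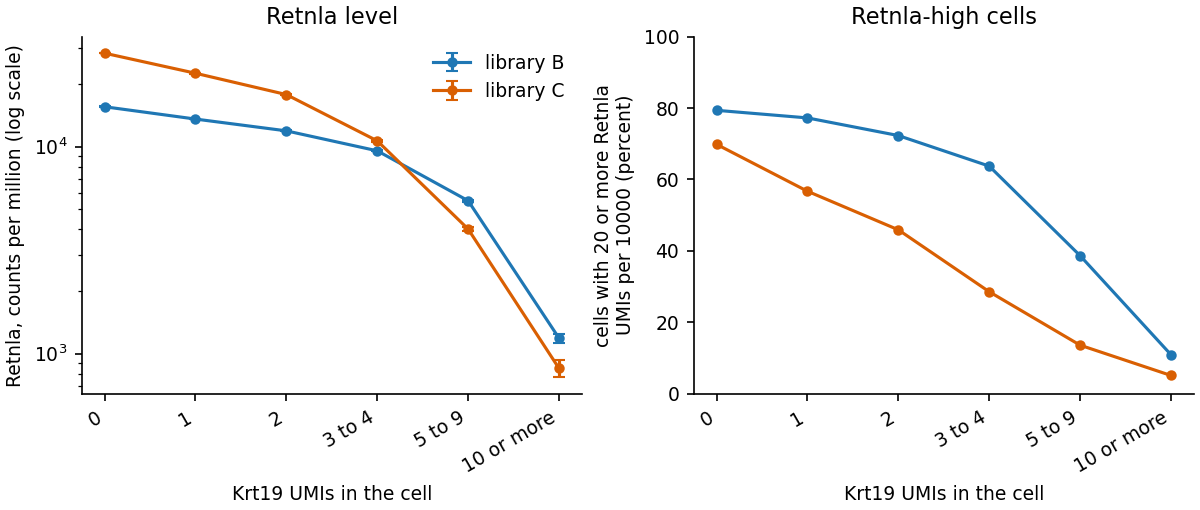
Retnla in CPM (left, log scale, 95% exact Poisson intervals) and percent of cells with 20 or more Retnla UMIs per 10000 (right) by the number of Krt19 UMIs in the cell, for libraries B and C. Retnla falls at each step, from 15604 to 1188 CPM in B and from 28313 to 849 CPM in C.

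The Krt19 difference was present in dividing and in other cells. Among cells without Mki67 or Top2a Retnla stood at 8885 CPM with Krt19 and 16432 CPM without it in B, and at 11691 and 29031 CPM in C. Among dividing cells the values were 9630 and 13902 CPM in B and 15655 and 26096 CPM in C. In B Retnlg stood at 14.8 CPM with Krt19 and 10.6 CPM without it, a log2 fold of 0.44 (interval 0.17 to 0.79). The cell with 58 Retnlg UMIs gave 58 of the 371 UMIs with Krt19, and without it the log2 fold was 0.21 (interval -0.08 to 0.55). The share of cells with Retnlg was 6.54% and 6.28%. In C it stood at 8.94 and 17.8 CPM, a log2 fold of -0.92 (interval -1.29 to -0.71), with Retnlg in 1.83% and 3.92% of cells. Retnlb rested on 15 and 4 UMIs in B and 9 and 20 in C, with intervals of the log2 fold from -0.93 to 2.77 and from -1.72 to 0.80.

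Genes that rose with Retnla were then sought across the cells of B and C, in which over 50% of cells held it. Pearson's r was computed on log2 counts per 10000 UMIs, with the members left out of the total, for 5433 genes found in at least 5% of cells of both libraries. The cells of a library share its depth and free RNA, so r is a description. An r of at least 0.2 was found for 1.58% of tested genes in B and 0.918% in C, and for 46 genes (0.847%) in both. An r of -0.2 or below was found for 0.954% in B, 0.734% in C and 31 genes (0.571%) in both. On simulated counts these limits found 100 of 100 genes raised 4 times but 30 of 92 lowered 4 times. The lowered genes were also simulated at lower counts than the raised ones, so these shares do not separate direction from level. Counts of falling genes, and of genes with few UMIs, may be too low, which was not tested. The median over all tested genes was 0.01 in B and 0.00 in C. Of the other members and Retn 0 of 3 passed the 5% filter in both. For Retnlg r was 0.11 in B and 0.13 in C, and among Retnla-high cells 0.02 in each. For Retnlb it was 0.03 and 0.04.

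The chitinase family genes Chil1, Chil4 and Chia1 were among the 15 genes most like Retnla. Chil1, which encodes a chitin-binding protein without enzyme activity, had r of 0.59 in B and 0.62 in C. It went from 3428 CPM, again over UMIs of other genes, in the 10% of cells lowest in Retnla to 9783 CPM in the highest 10% in B, and from 2617 to 10103 CPM in C. In C the lowest 10% is 1458 of the 3182 cells with 0 Retnla UMIs. Chil4, which encodes a secreted chitinase-like protein, had r of 0.67 and 0.53 and went from 226 to 16859 CPM and from 21.2 to 6230 CPM. Chia1, the acidic chitinase, had r of 0.45 and 0.54 and went from 49.7 to 1833 CPM and from 13.2 to 2727 CPM. Chil4 (chr3:106201490-106219507) and Chia1 (chr3:106113229-106132120) both lie on chromosome 3.

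The surfactant collectins Sftpa1 and Sftpd were also among the 15 genes most like Retnla, with r of 0.57 and 0.54, and of 0.42 and 0.38, in B and C. The chemokine Cxcl15 had 0.52 and 0.39 and Cxcl5 had 0.45 and 0.37. Pigr, the receptor that carries IgA across epithelium, had 0.52 and 0.40, the fetuin Fetub 0.54 and 0.40, and the iron carrier Trf 0.45 and 0.36. Rgs4, a brake on G protein signalling, had 0.58 and 0.48 and went from 8.82 to 367 CPM in B and from 4.28 to 287 CPM in C. Fxyd4, Cd177, the long noncoding RNA Meg3 and Bex4 completed the set, with r from 0.34 to 0.43. The 15th gene had a lower r of 0.335 over the 2 libraries and the 16th 0.311.

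Of the 10 genes that fell most, Krt19 and Lgals3 are on the transitional list and Ager is on the ATI list. Krt19 had r of -0.40 in B and -0.33 in C, Lgals3, which encodes galectin 3, -0.36 and -0.33, and Ager, a marker of alveolar type I (ATI) cells, -0.49 and -0.29. The glycolysis genes Gapdh, at -0.37 and -0.34, and Pgk1, at -0.29 and -0.35, were also among them. Tmem213 had -0.39 and -0.48, Tmsb4x, which encodes an actin-binding peptide, -0.38 and -0.40, and Ndnf, Esd and Bsg had r from -0.35 to -0.29. Lgals3 went from 386 CPM in the lowest to 81.7 CPM in the highest 10% of B and from 400 to 70.2 CPM in C.

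**Figure D5:**
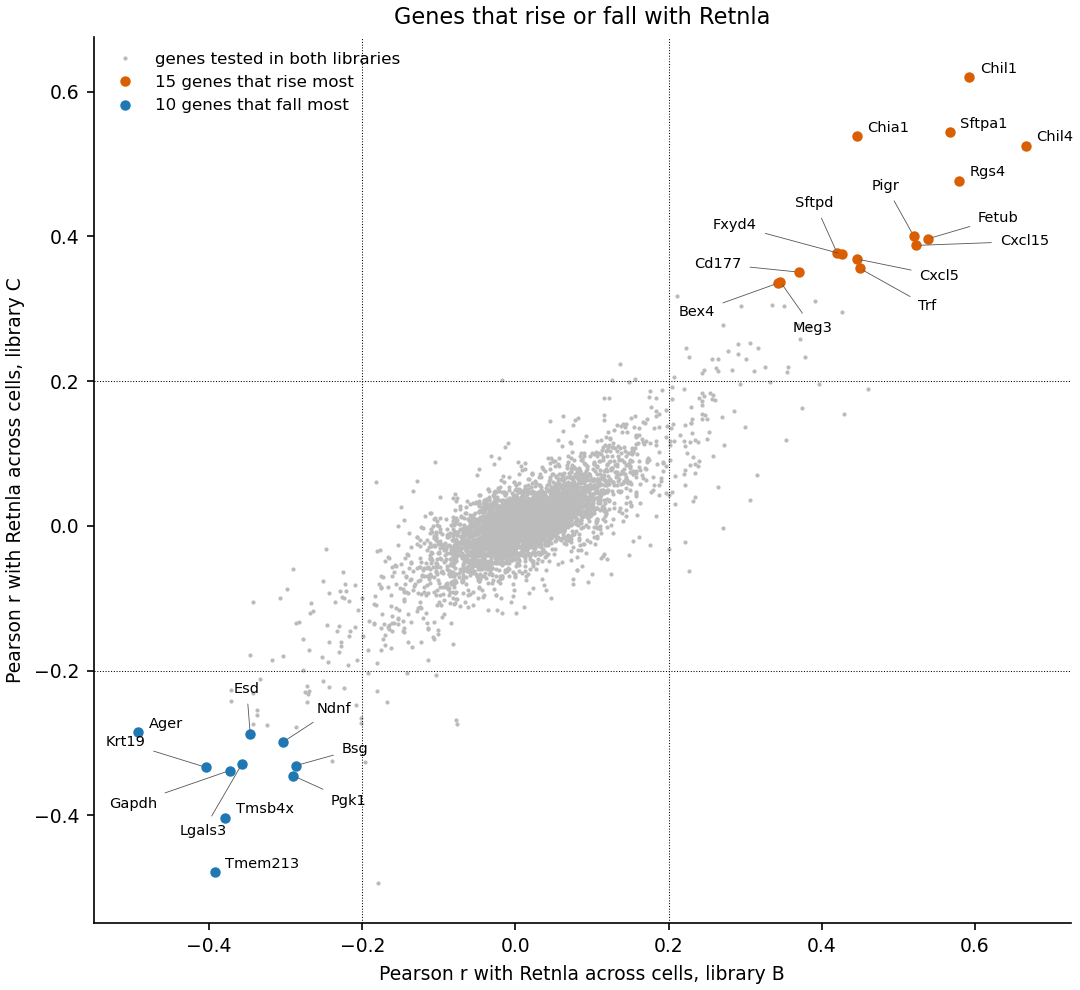
Pearson's r with Retnla across the cells of library B (horizontal) and of library C (vertical) for 5433 genes, with the 15 genes that rise most and the 10 that fall most named and dotted lines at 0.2 and -0.2. Chil1 stands at 0.59 and 0.62 and Ager at -0.49 and -0.29.

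Much of this ordering was not kept within the high range of Retnla. These cells were chosen by Retnla, and a narrower span of it can by itself lower r. The named genes were also picked by their r over all cells. Within Retnla-high cells 2 of the 15 rising genes, Chil1 and Sftpa1, kept r of at least 0.2 in both libraries, at 0.29 and 0.43 and at 0.27 and 0.25. Of the 10 falling genes 1, Lgals3, kept r of -0.2 or below, at -0.28 and -0.20. Chil4 went to 0.17 in B and 0.28 in C, and Ager to 0.01 and -0.01. Over all genes 4 rose and 3 fell by this rule in such cells.

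The lists of pathways and cell types were chosen with earlier results of these data known. Of 34 IL-4 and IL-13 response genes besides Retnla 8 were tested and 5 had r of at least 0.2 in both libraries, Chil1, Chil4, Chia1, Slc26a4 and Hdc, and the median r of the 8 was 0.25 in B and 0.28 in C. Among all tested genes 0.847% reached that r in both. Slc26a4 had 0.21 and 0.32, Hdc, which makes histamine, 0.29 and 0.25, and Noxo1, an oxidase organizer, 0.15 and 0.20. Ptgs1, a prostaglandin synthase, had -0.01 and -0.04. Arg1 and Chil3, known from macrophages, stood at 0.575 and 3.41 CPM in B and 0.806 and 1.33 CPM in C, and Ccl11 and Ccl24 had 0 UMIs. Of the goblet cell genes on the list, Muc5ac stood at 0.0616 CPM in B and 0.0375 CPM in C. Itln1, a lectin, stood at 0.456, 14.01 and 6.36 CPM in A, B and C, near the level of Retnlg, and Tff2, a trefoil peptide, at 0, 9.80 and 5.31 CPM. Spdef stood at 2.37, 3.37 and 5.14 CPM and Agr2 at 0.0157, 4.97 and 1.29 CPM. Il4i1, an amino acid oxidase, held 39.3 CPM in B and 12.2 in C, with r of 0.22 and 0.10.

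Of the receptor and STAT6 signalling genes 8 of 18 were tested. Among them 1, the feedback inhibitor Socs2, reached r of 0.2 in both libraries, at 0.39 and 0.31, as did 0.847% of all tested genes. Socs2 went from 75.7 CPM in the lowest to 254 CPM in the highest 10% of B and from 61.7 to 258 CPM in C. Il4ra, the shared receptor chain, stood at 9.02, 12.7 and 16.3 CPM in A, B and C and had r of 0.08 and 0.07, and Stat6 held 25.5, 8.57 and 8.44 CPM and was below the detection filter. Il2rg, the second chain of the type I receptor, had 0 UMIs in each library, and Il13ra1, of the type II receptor, held 14.2, 14.6 and 12.2 CPM. Cebpa had r of 0.11 and 0.11, Cebpb -0.10 and -0.05, Cish 0.13 and 0.07 and Jak1 0.13 and 0.04. Of 8 genes proposed as receptors or partners of resistin-like proteins 2 were tested, Cap1 with 0.02 and -0.03 and Vegfa with -0.12 and -0.13.

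Among cell state lists ATII genes rose with Retnla in part, transitional, ATI and glycolysis genes fell in part, and no proliferation gene reached either limit. By the same limits 0.847% of all tested genes rose in both libraries and 0.571% fell, with a median r of 0.01 in B and 0.00 in C. Of 15 tested ATII genes 6 rose and 0 fell, with a median r of 0.07 in each library. Transitional genes had 4 of 15 falling, among them Clu at -0.34 and -0.23 and S100a6 at -0.33 and -0.21, and a median of -0.16 and -0.11. ATI genes had 4 of 11 falling, with Hopx at -0.32 and -0.28, and a median of -0.17 and -0.14. Of 21 tested hypoxia and glycolysis genes 4 fell, Gapdh, Pgk1, Aldoa and Bnip3, with a median of -0.12 and -0.13. Proliferation genes had 0 of 16 in either direction and a median of -0.05 and 0.02. Their summed level, over all UMIs, still differed between the ends of the Retnla range. With 300 or more Retnla UMIs per 10000 against under 2, it was 1021 against 2176 CPM in B. In C it was 1325 against 1776 CPM. The change was not graded. With cells of B ordered by Retnla, Top2a stood at 174 and 172 CPM in the lowest and the next 10%. It stood at 69.9 CPM in the 3rd 10% and 99.5 CPM in the highest. In C it went from 106 CPM in the lowest 10% to 189 CPM in the 3rd and 61.6 CPM in the highest. In the inflammatory list 3 of 9 rose, Cxcl5, Il33 and C3. Of 6 MHC class II genes 1 rose, H2-Aa at 0.26 and 0.22, and of 14 unfolded protein response genes 1 rose, Manf at 0.21 and 0.21, with list medians from 0.11 to 0.15.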

How the data were processed

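Single cells were measured with the Chromium 3 prime kit, chemistry v3.1, per the labels' protocols. Cell Ranger 6.0.1, bcl2fastq and the builds GRCm38 and mm10 are named per the submitters' processing notes. The authors deposited 1 matrix of whole-number UMI counts per gene and barcode, and the gene IDs and barcodes as text; cell calling is not given in the sources used here. Of 36584 barcodes 36540 were kept, by minimums of 1000 UMIs and 500 genes and a maximum of 15% from the 37 mitochondrial genes, and doublets were not removed. GENCODE vM21 named 52489 gene IDs, and the 147 others hold 0.00980% of UMIs. CPM came from summed counts. Folds of classes of cells used a pseudocount of 1 CPM. Intervals are exact Poisson for CPM, exact conditional for folds and Clopper-Pearson for shares. Thinning used seed 1. The members and lists were chosen with earlier results of these data known. Genes were named by rule, as the 15 highest and 10 lowest by their weaker r, every gene within 250 kb, up to 4 per list, and any of the IL-4 lists. The fold and r scripts were tested on simulated counts. The fold rule called 100 of 100 genes raised 4 times and 100 of 100 lowered 4 times. The r rule called 100 of 100 raised genes but 30 of 92 lowered genes, whose median r was -0.166. Lowered genes had fewer simulated counts than raised ones, so these shares do not compare directions at like level. The limit of 20 Retnla UMIs per 10000 and the 6 Retnla ranges were set after the distribution was seen. Promoters are from RefSeq. Software was scipy 1.17.1, pandas 2.3.3, matplotlib 3.10.9, numpy 2.4.6 and Biopython 1.88 (alignments) under Python 3.11.15. The tag libraries were not analysed here.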

Additional observations from a re-analysis of the deposited data

How the results depend on the processing

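No paired analysis was possible because no library could be matched to a label and no group has 2 samples. Over the alternatives run, 57 of 107 values for the main comparisons stayed within counting error (counts of genes within 1.5 times) and the rest moved, while the Krt19 difference stayed below 0 in libraries B and C. The level of Retnla in libraries A, B and C was 23.96, 11687 and 22256 CPM without the 5% of cells with most UMIs, 46.2, 16262 and 30806 CPM with the members and the 20 top genes left out of the total, and 22836 CPM in C with at least 2000 UMIs and at most 10% mitochondrial. Thinned to 1000 UMIs, 1.41%, 78.2% and 65.7% of cells held Retnla. For dividing cells the log2 fold was 2.38, -0.12 and -0.13 in A, B and C with 2 or more UMIs, and -0.19 in A without the 2 dividing cells with most Retnla. In B and C it was -0.094 and -0.13 with the reduced total, -0.061 and -0.15 after thinning, -0.14 and -0.25 at equal depth, 0.040 and -0.033 with cells weighted alike, and -0.24 and -0.15 in cells without Krt19. In C it was -0.078 with the stricter filter, -0.15 without the deepest cells and -0.22 in Retnla-high cells. For Krt19 it was -0.52, -1.05 and -1.83 in A, B and C with 3 or more UMIs. In B and C it was -0.84 and -1.21 without the deepest cells, -0.82 and -1.24 with the reduced total, -1.82 and -1.82 after thinning, -0.97 and -1.40 at equal depth, -0.92 and -1.31 with cells weighted alike, -0.89 and -1.31 in non-dividing cells, and -0.46 and -0.23 in Retnla-high cells. It was -1.15 in C with the stricter filter. Genes with r of at least 0.2 in both libraries numbered 21 after thinning, 24 in cells without Krt19 and 4 in Retnla-high cells, and falling genes 7 and 3 in the latter settings. In cells without Krt19 Bsg had r of 0.010 in B. In Retnla-high cells r in B was -0.0033 for Meg3, 0.087 for Tmsb4x, 0.0045 for Gapdh, 0.0037 for Pgk1 and 0.0079 for Ager, and 0.022 in C for Tmsb4x. The causes were not tested. Leaving out shared barcodes or single cells and using Retnla-high cells alone were chosen after seeing the data. Depth limits Retnlb, and Retnlg in single cells.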
